A study of Mus musculus with 24 samples.

Results

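The 7 genes described here are the Ebf genes Ebf1, Ebf2, Ebf3 and Ebf4 and the Myt1 family genes Myt1, Myt1l and St18, taken by name from a table of read counts for 51697 genes. The RNA came from F123, embryonic stem (ES) cells of a hybrid mouse, in which CTCF is fused to an auxin-inducible degron (CTCF-AID), so that auxin leads to destruction of the CTCF protein. CTCF is a zinc finger protein that binds DNA and anchors chromatin loops, and the series asks how CTCF bound near promoters affects genes that are switched on by distant enhancers. All 24 libraries carry the degron, controls included, and fall into 12 groups of 2. ES cells were taken at 0, 24, 48 and 96 h of auxin. Cells driven toward neural progenitors were harvested on days 2, 4 and 6 with auxin or, as controls, without it. In the washout groups auxin was removed on day 4 or on day 6, and harvest followed 2 days after removal. Each ml of medium received 1 µl of auxin stock at 500 mM, and medium was renewed every 24 h. The labels do not say when auxin began in the differentiating cells, whether the line is 1 clone, or whether replicates were separate cultures. A p-value here therefore speaks only of the spread between replicate libraries, shared over all groups in its fit, which may be technical. Cells without the degron that received auxin were not analysed here, so effects of auxin itself and of CTCF loss cannot be told apart.

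EBF proteins, also called COE or Olf-1/EBF proteins, are transcription factors with a zinc-containing DNA-binding domain and a helix-loop-helix dimerization domain, and as dimers they bind a palindrome of CCC and GGG half-sites. In the nervous system they act after the proneural basic helix-loop-helix factors, when progenitors leave the cell cycle and become neurons. Ebf1 is best known for specifying B lymphocytes and also acts in striatal neurons. Ebf2 acts in neuron migration and in brown fat cells, Ebf3 in neuronal differentiation, and Ebf4 was found in olfactory sensory neurons. MYT1 family proteins carry clusters of CCHC zinc fingers that bind the letters AAAGTT and recruit corepressors with histone deacetylases. Myt1 is switched on in newly forming neurons and counters Notch signalling, Myt1l keeps genes of other cell types silent in neurons, and St18, also called Myt3, is expressed in neurons and in endocrine pancreas.

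Promoter sequences are shown for Myt1 and Ebf3, which fell with auxin on days 4 and 6, and for Ebf4, which was higher with auxin on day 6. Each is the 250 bases before a RefSeq start on GRCm38.p6 (the build also called mm10), 5′ to 3′ on the gene's strand. None overlaps a GENCODE exon of its own gene, and exons of other genes were not checked. Capitals mark the AAAGTT core in the Myt1 window and the CCCNNGGG half-sites in the Ebf3 window, the motifs of these families' own proteins. The window of Myt1 start 1 lies at chr2:181763082-181763331 on the plus strand, that of start 3 at chr2:181796057-181796306 on the plus strand, the Ebf3 window at chr7:137314446-137314695 on the minus strand and the Ebf4 window at chr2:130295689-130295938 on the plus strand.
Myt1 start 1: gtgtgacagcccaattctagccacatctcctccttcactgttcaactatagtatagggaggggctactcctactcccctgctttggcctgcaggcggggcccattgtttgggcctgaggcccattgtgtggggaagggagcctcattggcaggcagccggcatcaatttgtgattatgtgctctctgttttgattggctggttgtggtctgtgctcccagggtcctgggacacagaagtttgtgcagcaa
Myt1 start 3: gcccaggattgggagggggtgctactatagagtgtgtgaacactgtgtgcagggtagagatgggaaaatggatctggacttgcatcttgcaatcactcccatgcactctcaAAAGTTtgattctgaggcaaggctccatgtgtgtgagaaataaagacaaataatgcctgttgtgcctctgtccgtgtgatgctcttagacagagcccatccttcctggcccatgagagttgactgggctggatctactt
Ebf3 start 1: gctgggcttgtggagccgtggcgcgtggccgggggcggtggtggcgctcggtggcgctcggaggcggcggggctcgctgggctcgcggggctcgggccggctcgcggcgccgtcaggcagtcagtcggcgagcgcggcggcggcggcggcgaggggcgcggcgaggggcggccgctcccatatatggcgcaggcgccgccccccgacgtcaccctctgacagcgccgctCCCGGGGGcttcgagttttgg
Ebf4 start 1: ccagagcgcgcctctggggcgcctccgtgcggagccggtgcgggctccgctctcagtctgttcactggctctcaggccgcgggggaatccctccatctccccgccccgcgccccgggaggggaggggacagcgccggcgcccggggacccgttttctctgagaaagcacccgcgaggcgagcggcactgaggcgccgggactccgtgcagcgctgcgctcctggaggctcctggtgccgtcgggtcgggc
The Ebf3 and Ebf4 windows were 80.0% and 75.2% G or C, against 54.8% at the first Myt1 start. Both strands of 12 windows of Ebf1, Ebf3, Ebf4, Myt1 and Myt1l were searched for the same letters as all 32817 windows in the RefSeq table. CCCNNGGG occurred in 1 of the 12 windows, Ebf3, beginning 21 bases before the start, and in 11.8% of all windows. AAAGTT occurred in 1 of 12, Myt1 start 3, beginning 139 bases before the start, and in 12.5% of all windows. The proneural E-box CAGATG occurred in 3 of 12, all at Myt1l, and in 14.5% of all windows. The E-box CAGCTG occurred in 1 of 12, at Myt1l, and in 13% of all windows, and the TATAAA box in 0 of 12 and in 12.4% of all windows. Of the 4 Myt1l windows with an E-box, those of starts 4 and 5 lie wholly within annotated exons. The core of the CTCF motif occurred in 0 of 12 and in 2.07% of all windows, and windows of this length say nothing of CTCF bound elsewhere.

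Library totals ran between 24696374 and 72048935 counts. ES replicate 1 libraries were the shallowest at 24696374 to 29909368 counts, ES replicate 2 libraries held 51686150 to 61681404, and the differentiation and washout libraries held 51053184 to 72048935. Replicates differed far more in ES cells, where the log2 ratio between replicates had an SD over genes of 0.466 to 0.57, than in the other groups, at 0.121 to 0.258. Levels below are CPM, the usual depth-scaled form of read counts, and fold changes with standard errors (SE) come from edgeR's quasi-likelihood test, and the call of a change needs an adjusted p under 0.05 over all genes tested. Ctcf mRNA was at 172 to 287 CPM in every library, which is no check of the degron, since it acts on the protein. Ctcf mRNA was higher in day 6 auxin libraries, at 254 and 269 CPM, than in day 6 control libraries, at 204 and 205 CPM. In day 6 control cells against ES cells at 0 h, 9 of 14 neural progenitor genes rose, among them Olig2, Nkx6-1, Fabp7 and Hes5, 1 fell and 4 did not pass, and 10 of 10 ES cell genes fell, among them Nanog, Fgf4, Utf1 and Tdgf1. Dcx, a microtubule protein of young neurons, averaged 51.9 ± 0.35 CPM there (SD, n = 2) and had 0 counts in ES cells at 0 h. Mesenchyme genes were present in the same cells, with Col3a1, a fibrillar collagen, at 286 ± 4.4 CPM in day 6 control cells and 1.02 ± 1.2 CPM in ES cells at 0 h (SD, n = 2 each). In bulk RNA of this kind, fewer cells of a type and less RNA per cell cannot be told apart.

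In control cells, Myt1 and St18 were low through day 2 and rose on day 4 and again on day 6, Ebf2 and Ebf3 rose on day 4 and again on day 6, Ebf4 reached its plateau on day 4, Myt1l rose early and again on day 6, and Ebf1 fell after day 2. Of the 7 genes, 1 rose on day 2 against ES cells at 0 h, where 18.2% of all genes tested changed (10.3% higher, 7.91% lower). On day 4 against ES cells 6 rose, where 38.4% of all genes changed (19.9% higher, 18.6% lower), and on day 6 again 6 rose, where 43.7% changed (22% higher, 21.8% lower). Between control days, 5 rose and 1 fell on day 4 against day 2, beside 52.1% of all genes changed (27.2% higher, 24.8% lower). On day 6 against day 4, 5 rose, beside 26.7% (13.6% higher, 13.1% lower). The median log2 fold change of the 7 genes on day 6 against day 4 was 1.03, with a median of 0 over all genes tested. The day 2 and day 4 comparisons with ES cells lean on the noisy ES libraries. Fitted on only the 4 libraries compared, the call of Myt1l was lost on day 2 (adjusted p = 0.15) and those of Myt1l (0.08) and Myt1 (0.056) on day 4.

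Ebf1, the B lineage and striatal factor, had 15.4 and 15.5 CPM in day 2 controls, 4.65 and 4.85 in day 4 controls and 5.51 and 6.16 in day 6 controls. It was highest in day 2 controls with no overlap, and its log2 fold change on day 4 against day 2 was −1.68 ± 0.13 (adjusted p = 1.6e-08). ES cells at 0 h had 6.35 and 7.92 CPM, and no control day differed from them at the threshold (adjusted p = 0.12, 0.35 and 0.64 on days 2, 4 and 6). Day 2 controls stood 2.16-fold above ES cells, and edgeR called this without the filter on low counts (log2 1.12, adjusted p = 0.005).

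Ebf2 was the scarcest Ebf gene, with 0.0789 and 0.122 CPM in ES cells at 0 h, 0.239 and 0.24 in day 2 controls, 0.669 and 0.515 in day 4 controls and 1.01 and 1.39 in day 6 controls. No 2 of these groups overlapped. It rose on day 4 against day 2 by 1.31 ± 0.37 on the log2 scale (adjusted p = 0.0065) and on day 6 against day 4 by 1.03 ± 0.31 (adjusted p = 0.021). The step to day 4 was not called without day 4 control replicate 1 (adjusted p = 0.055), nor the step to day 6 without day 4 control replicate 2 (0.17) or day 6 control replicate 2 (0.2).

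Ebf3, the neuronal differentiation factor, had 0.75 and 0.812 CPM in ES cells at 0 h, 1.26 and 1.11 in day 2 controls, 3.65 and 3.68 in day 4 controls and 9.35 and 7.93 in day 6 controls. The groups were separate at every step. Its log2 fold change was 1.65 ± 0.17 on day 4 against day 2 (adjusted p = 4.2e-07) and 1.24 ± 0.14 on day 6 against day 4 (adjusted p = 6.7e-06). Gm45278, an antisense gene that overlaps exons of Ebf3, had 91 counts over all 24 libraries, and the strand setting of the counting is not given in the sources used here.

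Ebf4, the olfactory neuron member, had 3.56 and 4.34 CPM in day 2 controls, 12.2 and 12.7 in day 4 controls and 11.3 and 12.3 in day 6 controls. Day 4 and day 6 libraries overlapped and both stood above day 2, with a log2 fold change of 1.67 ± 0.1 on day 4 against day 2 (adjusted p = 7.8e-10) and −0.07 ± 0.1 on day 6 against day 4 (adjusted p = 0.68).

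Myt1 had 0.158 and 0.0406 CPM in ES cells at 0 h, 0.205 and 0.12 in day 2 controls, 0.602 and 1.45 in day 4 controls and 13 and 12.5 in day 6 controls. Both day 6 libraries were far above every other library of the series, and the day 4 pair was uneven. Its log2 fold change was 2.7 ± 0.55 on day 4 against day 2 (adjusted p = 0.00055) and 3.62 ± 0.35 on day 6 against day 4 (adjusted p = 8.9e-07), which is 12.3-fold. Leaving out single libraries gave 1.92 to 3.18 and 3.14 to 4.4 for these steps, with the day 4 control replicates at both ends of the second, and both stayed called. Against ES cells at 0 h, the day 4 call was not made without ES 0 h replicate 2 (adjusted p = 0.076) or without day 4 control replicate 2 (0.064).

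St18 followed Myt1 at a lower level, with 0 counts in both day 2 control libraries, 0.485 and 0.727 CPM in day 4 controls and 4.17 and 3.79 CPM in day 6 controls. Day 4 controls were at least 25.6-fold above day 2 controls, set against 3 counts over the group, and day 6 exceeded day 4 by 2.71 ± 0.36 on the log2 scale (adjusted p = 3.6e-05). Myt1l, the keeper of neuronal identity, had 0.197 and 0.568 CPM in ES cells at 0 h, 1.48 and 1.7 in day 2 controls, 1.49 and 1.49 in day 4 controls and 2.69 and 2.69 in day 6 controls. Day 2 and day 4 controls overlapped, and day 6 stood above both, with a log2 fold change of 0.86 ± 0.19 against day 4 (adjusted p = 0.0028). In a fit of all 24 libraries, whose shared spread includes the ES replicates, the day 6 steps of Ebf2 and Myt1l were not called (adjusted p = 0.39 and 0.25) and those of Myt1, St18 and Ebf3 were.

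Per kilobase of exon, the order of levels in day 6 controls was Ebf4 at 3.65 ± 0.21, Myt1 at 1.77 ± 0.049, Ebf3 at 0.936 ± 0.11, St18 at 0.615 ± 0.042, Ebf1 at 0.598 ± 0.047, Myt1l at 0.192 and Ebf2 at 0.173 ± 0.038 CPM per kb (SD, n = 2 each). Per kilobase of exon, St18 and Ebf1 did not differ beyond their spread, nor did Myt1l and Ebf2. The order depends on the length used. Per kilobase of coding sequence Ebf3, at 4.83 ± 0.56, stood above Myt1, at 3.58 ± 0.099 CPM per kb, and Ebf1, at 3.28 ± 0.26, stood above St18, at 1.2 ± 0.082 CPM per kb.

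**Figure D1:**
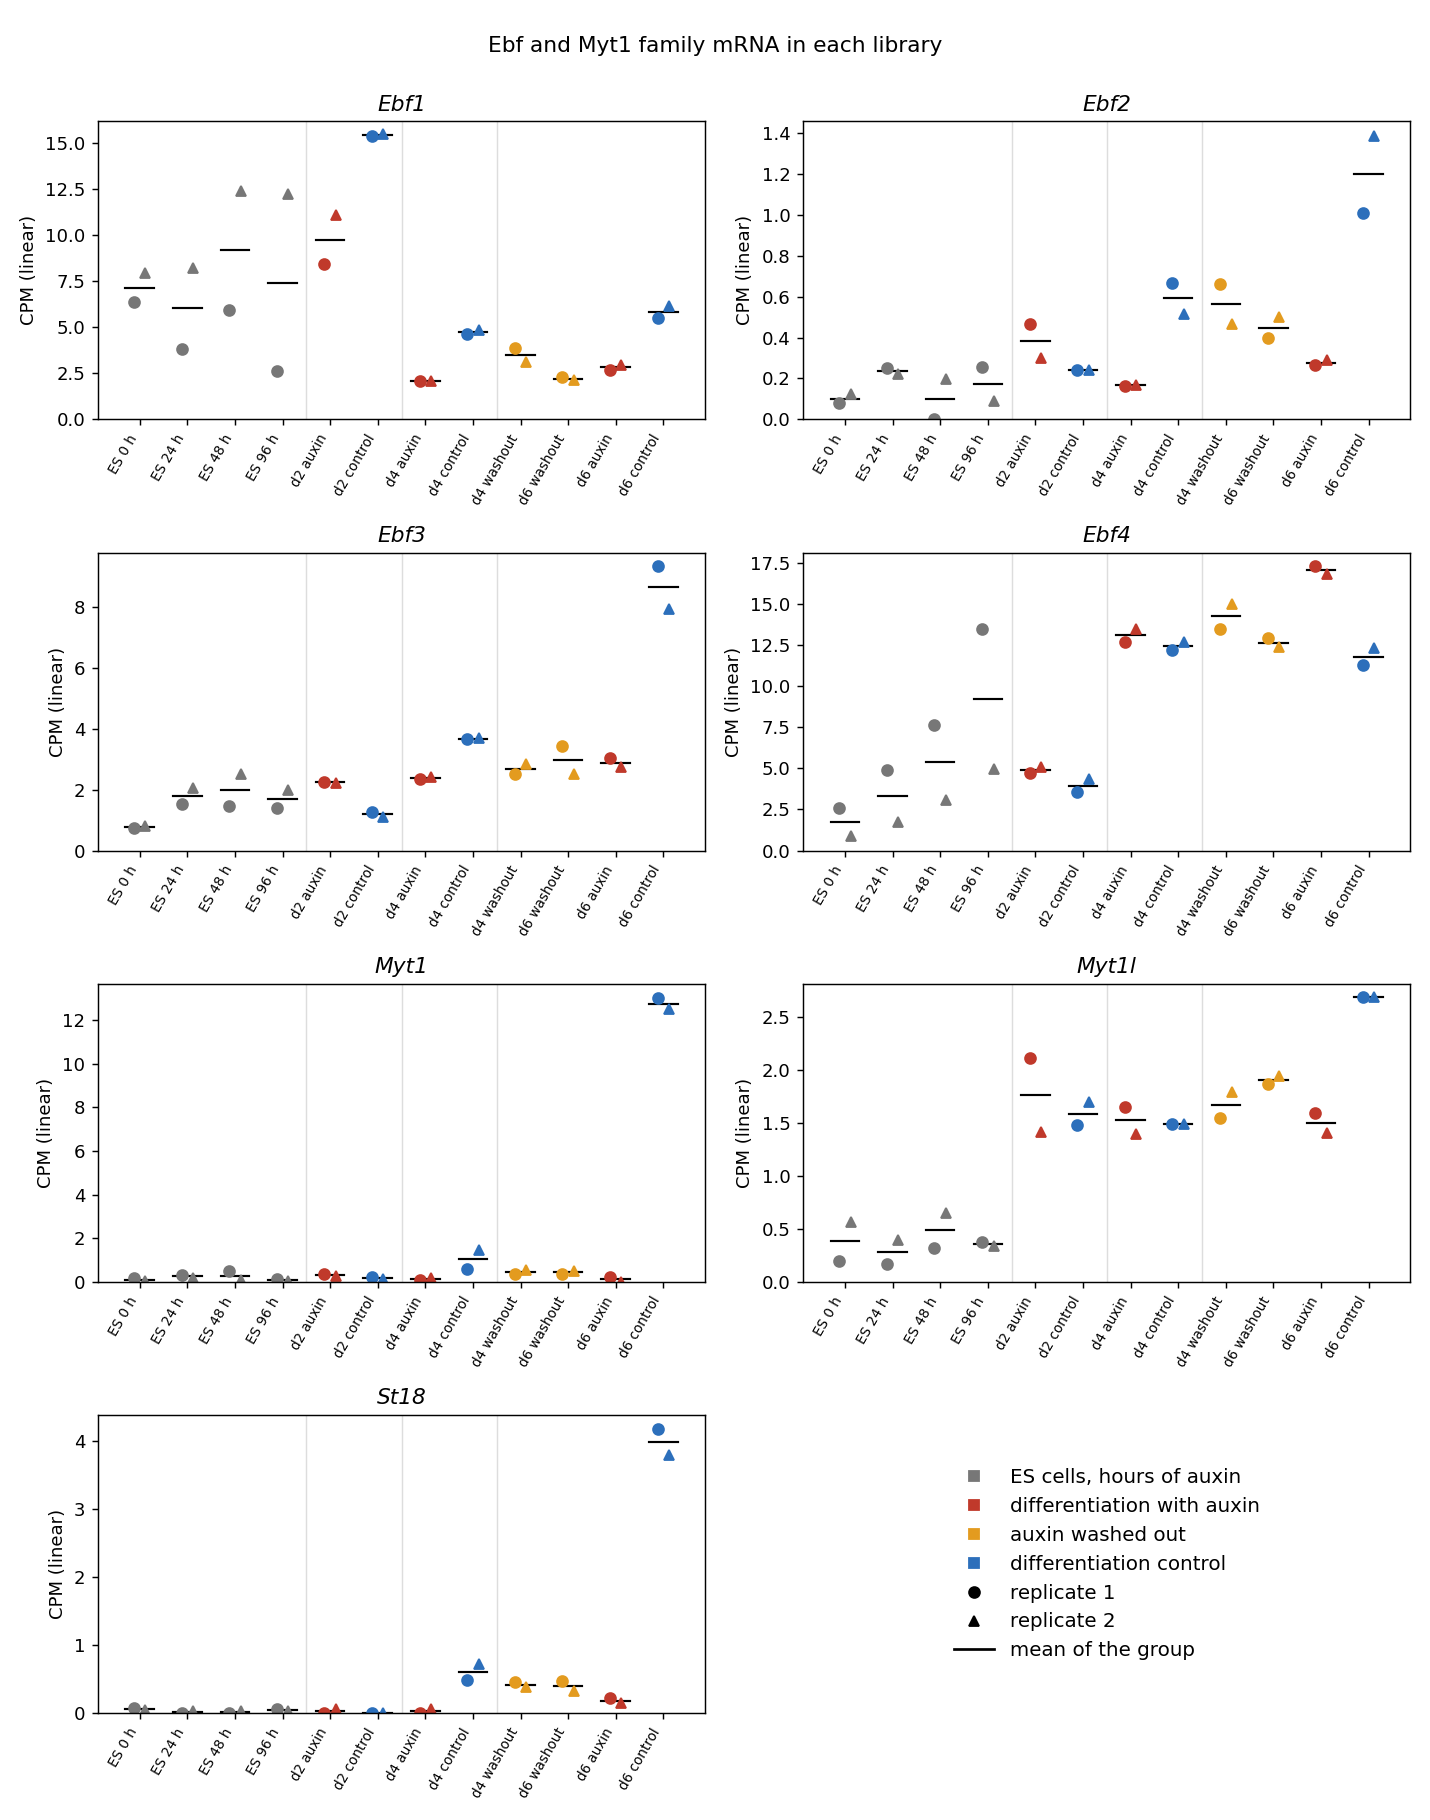
CPM on a linear axis for each of the 7 genes in all 24 libraries, by group, with replicate 1 as circles, replicate 2 as triangles and the group mean as a bar. Myt1 and St18 stand out in the 2 day 6 control libraries, Ebf1 in day 2 controls, and Ebf4 in day 6 auxin cells at 17.3 and 16.8 CPM.

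On day 6, Myt1 was 105-fold lower and St18 22-fold lower in auxin cells than in control cells, Ebf2, Ebf3, Ebf1 and Myt1l fell by smaller factors, and Ebf4 rose. On day 2, Ebf3 was higher and Ebf1 lower, beside 18.3% of all genes changed (9.84% higher, 8.43% lower). On day 4, 5 of the 7 were lower in auxin cells, beside 23.5% of all genes changed (11.8% higher, 11.8% lower). All 7 genes changed on day 6, 6 lower and 1 higher, where 29.2% of all genes tested changed (14% higher, 15.2% lower). The median log2 fold change of the 7 was 0.68 on day 2, −1.19 on day 4 and −1.59 on day 6, with medians over all genes of 0.02, 0 and 0.01. The day 2 median falls on Ebf2, which was not called, and includes St18, which had 4 counts with auxin and 0 in controls. These comparisons share control libraries with the control time course and, on day 6, with the washout comparisons.

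On day 2 Myt1 had 0.338 and 0.285 CPM with auxin and 0.205 and 0.12 CPM in controls, a difference that was not called (adjusted p = 0.39). On day 4 it had 0.0917 and 0.182 CPM in auxin libraries, against 0.602 and 1.45 CPM in controls, with no overlap and a log2 fold change of −2.87 ± 0.57 (adjusted p = 0.0013), or −3.48 to −2.09 on leaving out single libraries. On day 6 it had 0.231 and 0 CPM in auxin libraries, against 13 and 12.5 CPM in day 6 controls. The day 6 auxin value is 14 counts in replicate 1 and 0 in replicate 2, against 795 and 908 counts in controls, and the groups did not come near each other. The day 6 log2 fold change was −6.71 ± 0.48 (adjusted p = 1.9e-08). Without auxin replicate 2, the library at 0, it was −5.77, and without auxin replicate 1 it was −12.6, which then rests on the library at 0. Both were still called.

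On day 2 St18 had 0 and 4 counts with auxin and 0 in both controls, too few for a fold. On day 4 auxin libraries held 0 and 4 counts, against 29 and 48 counts in controls, with a log2 fold change of −4.13 ± 0.66 (adjusted p = 0.00024) that was −3.29 without auxin replicate 1 and −8.2 without auxin replicate 2, still called in both cases. On day 6 it had 0.215 and 0.144 CPM in auxin libraries, against 4.17 and 3.79 CPM in day 6 controls, again far apart. The day 6 log2 fold change was −4.46 ± 0.43 (adjusted p = 8.9e-07).

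On day 2 Ebf2 had 0.469 and 0.301 CPM in auxin libraries, against 0.239 and 0.24 CPM in controls, higher in both auxin libraries but not called (adjusted p = 0.27). It had 0.165 and 0.167 CPM in day 4 auxin libraries, against 0.669 and 0.515 CPM in controls, and 0.264 and 0.288 CPM in day 6 auxin libraries, against 1.01 and 1.39 CPM in controls. Auxin libraries were below controls on days 4 and 6 without overlap, with log2 fold changes of −1.83 ± 0.39 on day 4 (adjusted p = 0.0025) and −2.12 ± 0.34 on day 6 (adjusted p = 0.00015).

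Ebf3 changed on all 3 days, in different directions. It had 2.25 and 2.23 CPM in day 2 auxin libraries, against 1.26 and 1.11 CPM in controls, 2.35 and 2.43 CPM in day 4 auxin libraries, against 3.65 and 3.68 CPM in controls, and 3.04 and 2.74 CPM in day 6 auxin libraries, against 9.35 and 7.93 CPM in controls. Groups were separate each day, auxin above control on day 2 and below it on days 4 and 6. The log2 fold changes were 0.93 ± 0.18 on day 2 (adjusted p = 0.0015), −0.62 ± 0.16 on day 4 (adjusted p = 0.008) and −1.59 ± 0.15 on day 6 (adjusted p = 4.1e-07). The day 4 call was lost without auxin replicate 1 (adjusted p = 0.06).

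Ebf1 was lower with auxin on every day. It had 8.41 and 11.1 CPM in day 2 auxin libraries, against 15.4 and 15.5 CPM in controls, 2.09 and 2.08 CPM in day 4 auxin libraries, against 4.65 and 4.85 CPM in controls, and 2.68 and 2.96 CPM in day 6 auxin libraries, against 5.51 and 6.16 CPM in controls. No group overlapped its control, and the log2 fold changes were −0.65 ± 0.13, −1.19 ± 0.15 and −1.06 ± 0.15 on days 2, 4 and 6 (adjusted p = 0.0017, 2e-05 and 2.8e-05).

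Ebf4 moved the other way on day 6, with 17.3 and 16.8 CPM in auxin libraries, against 11.3 and 12.3 CPM in controls, and no overlap. The log2 fold change was 0.32 ± 0.11 on day 2 (adjusted p = 0.056, or 0.049 with a replicate block), 0.07 ± 0.1 on day 4 (adjusted p = 0.69) and 0.52 ± 0.09 on day 6 (adjusted p = 0.00048). Myt1l had 1.6 and 1.41 CPM in day 6 auxin libraries, against 2.69 in both controls, and a log2 fold change of −0.85 ± 0.19 (adjusted p = 0.0029). On days 2 and 4 Myt1l libraries of the 2 arms overlapped.

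The change in the auxin effect between days was tested directly. The effect on day 4 was lower than on day 2 for Ebf2, Ebf3, Myt1 and St18, beside 9.9% of all genes with a difference (4.56% higher, 5.34% lower). The effect on day 6 was lower than on day 4 for Ebf3 and Myt1, beside 4.24% (2.05% higher, 2.19% lower). Ebf3 gave log2 differences of −1.56 ± 0.24 (adjusted p = 0.00048) and −0.96 ± 0.22 (adjusted p = 0.017) in these tests, and Myt1 gave −3.83 ± 0.91 (adjusted p = 0.013) and −3.84 ± 0.98 (adjusted p = 0.036). The differences between days 6 and 4 were lost on leaving out single libraries, Ebf3 without any 1 of 6 of the 8 libraries and Myt1 likewise.

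In the fit of all 24 libraries the day 6 calls of Myt1, St18, Ebf3 and Ebf2 stayed (adjusted p = 7.1e-05, 0.00029, 0.00094 and 0.027) and those of Ebf1, Myt1l and Ebf4 were lost (0.28, 0.24 and 0.7). On day 4 only St18 was called in that fit (adjusted p = 0.0054, against 0.058 for Myt1, 0.12 for Ebf2, 0.28 for Ebf1 and 0.32 for Ebf3), on day 2 no member (0.78 for Ebf1 and 0.14 for Ebf3), and neither difference between days was called for any member.

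**Figure D2:**
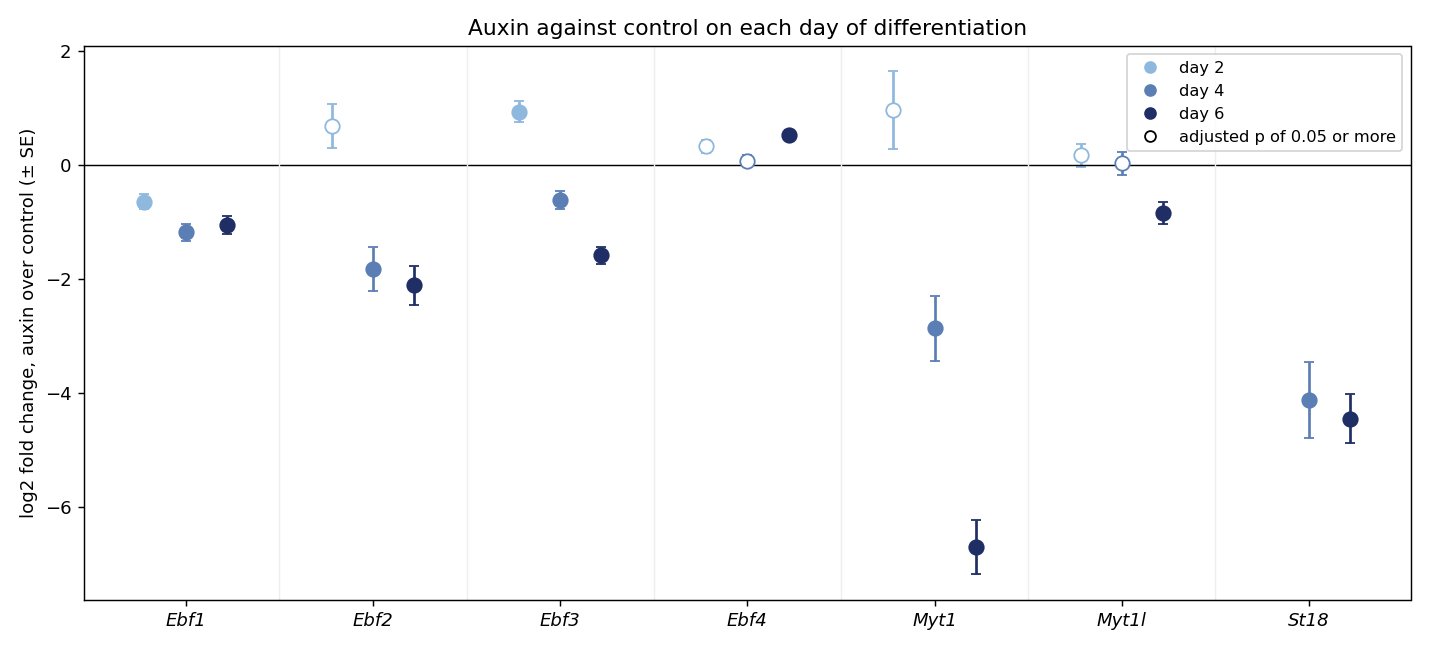
Log2 fold change of auxin over control with its SE for each gene on days 2, 4 and 6, filled where the adjusted p was below 0.05. St18 on day 2 is not drawn because its control libraries had 0 counts. Myt1 goes down to −6.71 on day 6, and Ebf4 is the member above 0 on that day.

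Within the auxin arm, day 4 was set against day 2 and day 6 against day 4. On day 4 against day 2, Ebf4 rose and Ebf1 and Ebf2 fell, beside 49.9% of all genes changed (25.3% higher, 24.7% lower). On day 6 against day 4, Ebf4 and St18 rose, beside 26.1% (12.8% higher, 13.3% lower). Ebf4 had log2 fold changes of 1.41 ± 0.1 on day 4 against day 2 (adjusted p = 6.7e-09) and 0.38 ± 0.09 on day 6 against day 4 (adjusted p = 0.0066). Ebf1 fell on day 4 against day 2 (log2 −2.23 ± 0.15, adjusted p = 2.2e-09). Myt1 gave −0.22 ± 0.87 on day 6 against day 4 with auxin (adjusted p = 0.89), and Ebf3 gave 0.28 ± 0.16 (adjusted p = 0.22). The fall of Ebf2 (adjusted p = 0.025) was lost without day 2 auxin replicate 1 (0.23) or either day 4 auxin library (0.086 and 0.095). The rise of St18 (adjusted p = 0.044), which starts at 4 counts over the day 4 group, was lost without day 4 auxin replicate 1 (0.23) or either day 6 auxin library (0.21 and 0.071) and with a replicate block (0.054), and its log2 fold change ran between 1.55 and 6.46 on leaving out single libraries. That of Ebf4 was lost without day 4 or day 6 auxin replicate 1 (0.069 and 0.06), and the 24-library fit called none of the day 6 steps.

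Cells washed free of auxin on day 4 were of the same age as day 6 cells at harvest. Myt1 then stood at 3.66% of the day 6 control level, St18 at 10.5%, Ebf3 at 30.8%, Ebf2 at 47.1%, Ebf1 at 59.7%, Myt1l at 62.2% and Ebf4 at 121%. With auxin kept on until day 6 the same genes stood at 0.911%, 4.51%, 33.4%, 23.1%, 48.3%, 56.0% and 144%. Against day 6 controls, day 4 washout cells had 6 of the 7 genes lower and Ebf4 higher, beside 33.9% of all genes changed (16.8% higher, 17.1% lower). Against day 6 auxin cells, Ebf2 and Myt1 were higher, beside 34.6% (17.3% higher, 17.3% lower).

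Myt1 had 0.379 and 0.552 CPM in day 4 washout libraries, against 0.231 and 0 CPM in day 6 auxin and 13 and 12.5 CPM in day 6 control libraries. Washout libraries lay just above the auxin libraries and far below controls, with a log2 fold change of −4.75 ± 0.4 against controls (adjusted p = 1.5e-07) and 1.96 ± 0.69 against auxin (adjusted p = 0.036). The difference from auxin depended on the auxin library at 0. Without that library it was 1.02 (adjusted p = 0.24), without the other auxin library 7.85, and without day 4 washout replicate 1 or 2 it was not called (0.057 and 0.2).

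Ebf2 had 0.662 and 0.465 CPM in day 4 washout libraries, against 0.264 and 0.288 CPM in day 6 auxin and 1.01 and 1.39 CPM in day 6 control libraries, so that washout lay between the other two without overlap. Its log2 fold change was 1.04 ± 0.37 against auxin (adjusted p = 0.039), and −1.08 ± 0.32 against controls (adjusted p = 0.014). The first was lost without day 4 washout replicate 1 or either auxin library (adjusted p = 0.24, 0.15 and 0.12), with DESeq2 (0.064), without a filter on low counts (0.06) and with halved counts (0.057), the second without day 4 washout replicate 2 or day 6 control replicate 2 (0.14 and 0.15). St18 had 0.454 and 0.379 CPM in day 4 washout libraries, against 0.215 and 0.144 CPM in day 6 auxin libraries, separate but not called (adjusted p = 0.083, or 0.043 with DESeq2).

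Ebf3 had 2.5 and 2.83 CPM in day 4 washout libraries, against 3.04 and 2.74 CPM in day 6 auxin and 9.35 and 7.93 CPM in day 6 control libraries. Washout and auxin overlapped, with a log2 fold change of −0.1 ± 0.16 between them (adjusted p = 0.68), and −1.69 ± 0.15 against controls (adjusted p = 3.2e-07). Ebf1 had 3.88 and 3.09 CPM in day 4 washout libraries (log2 −0.74 ± 0.14 against day 6 controls, adjusted p = 0.00076). Myt1l had 1.55 and 1.79 CPM (−0.67 ± 0.19, adjusted p = 0.012) and Ebf4 13.5 and 15.0 CPM (0.28 ± 0.1, adjusted p = 0.033). These last calls were fragile, that of Myt1l going without day 4 washout replicate 1 or either day 6 control (adjusted p = 0.09, 0.051 and 0.056), and that of Ebf4 without day 4 washout replicate 2 or either day 6 control (0.23, 0.23 and 0.056).

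After washout on day 6, cells were harvested 2 days later than the day 6 groups, so age and washout cannot be told apart in that comparison. Against day 6 auxin cells Myt1 was higher and Ebf4 lower, beside 40.3% of all genes changed (20.4% higher, 19.9% lower). Myt1 had 0.381 and 0.483 CPM in day 6 washout libraries, against 0.231 and 0 CPM in day 6 auxin libraries (log2 1.85 ± 0.69, adjusted p = 0.043), a call that was lost without day 6 auxin replicate 2, where the value was 0.92 (adjusted p = 0.27), or without day 6 washout replicate 1 or 2 (0.075 and 0.16). Without day 6 auxin replicate 1 the value was 7.73. Ebf4 had 12.9 and 12.4 CPM in day 6 washout libraries, against 17.3 and 16.8 CPM in day 6 auxin libraries (log2 −0.41 ± 0.09, adjusted p = 0.0025). Between the washout groups only Ebf1 differed, with 2.28 and 2.13 CPM in day 6 washout and 3.88 and 3.09 CPM in day 4 washout libraries (log2 −0.66 ± 0.16, adjusted p = 0.0099), beside 13.2% of all genes changed (7.18% higher, 5.99% lower). It was lost without day 4 washout replicate 1 (adjusted p = 0.15) or day 6 washout replicate 2 (0.095).

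The 4 washout libraries also differed from the rest in a technical trait. Among counts of 1 to 20, 59.6% to 60.5% were even in washout libraries, against 65.9% to 72.2% in the other differentiation libraries, and its part in the washout comparisons was not tested. In the fit of all 24 libraries no member differed between washout and day 6 auxin or between washouts, and Myt1, St18 and Ebf3 stayed lower in day 4 washout than in day 6 control cells (adjusted p = 0.00055, 0.0022 and 0.0006).

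**Figure D3:**
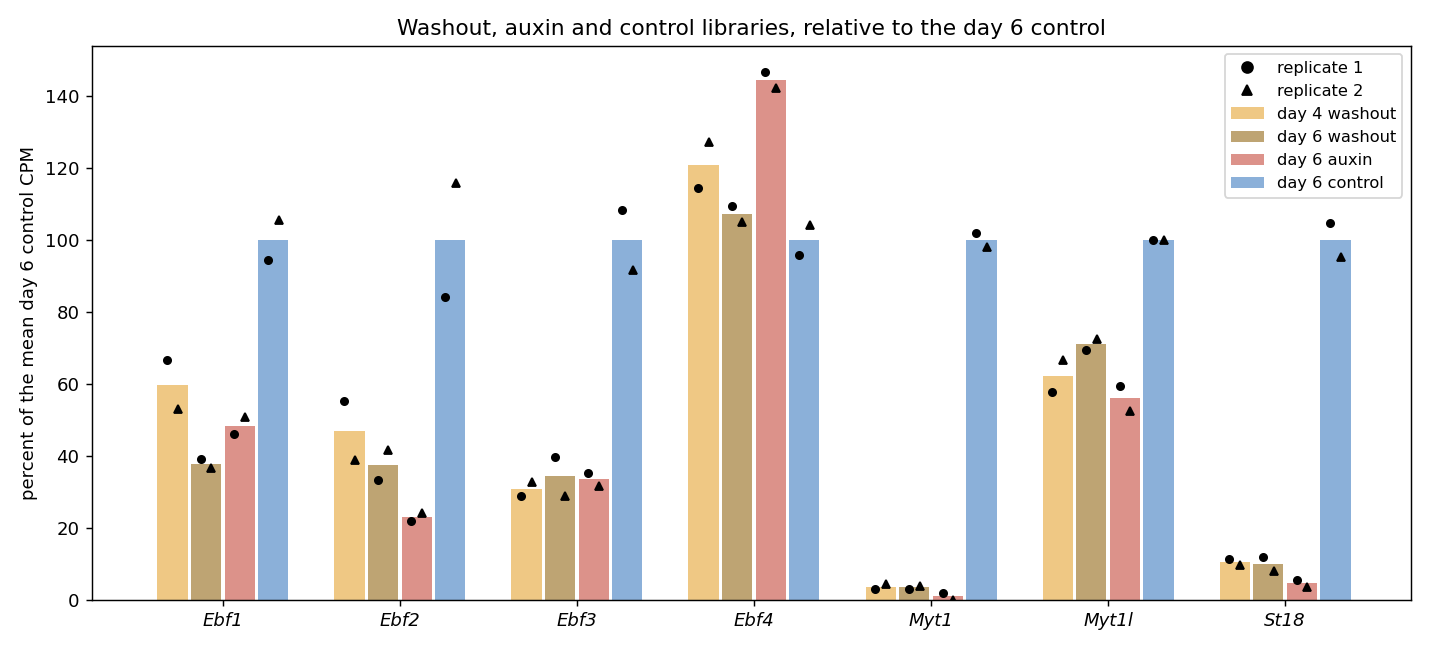
Level of each gene as a percentage of its mean day 6 control CPM, with bars for group means and symbols for the 2 libraries. Myt1 and St18 stay near the bottom in both washout groups, at 3.66% and 10.5% after washout on day 4.

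In ES cells none of the 5 genes tested passed at 24, 48 or 96 h of auxin, and 0 of all 20361 genes did, with 548, 1039 and 1767 genes at an unadjusted p below 0.05. Ebf2 and St18 were too low to be tested there, at 0 to 0.254 CPM and 0 to 0.0789 CPM. DESeq2 called 76, 156 and 367 genes at the 3 times, among them Ebf4 at 96 h (adjusted p = 0.05 after rounding). Ebf4 had 2.6, 4.92, 7.63 and 13.5 CPM at 0, 24, 48 and 96 h in replicate 1 and 0.873, 1.73, 3.1 and 4.95 CPM in replicate 2. Each replicate increased at each step, by 5.16-fold and 5.67-fold at 96 h over its own 0 h library, although replicate 1 was higher than replicate 2 throughout. The log2 fold change at 96 h was 2.41 ± 0.82 without a block (adjusted p = 0.43). Replicate differences of the 4 ES groups correlated over genes to varying degrees, least between 0 h and 96 h (0.189). With the replicate number as a block Ebf4 passed at 96 h (log2 2.42, adjusted p = 0.015, with 621 genes called), where the shared shift was weakest.

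Ebf3 had 0.75, 1.54, 1.45 and 1.4 CPM at 0, 24, 48 and 96 h in replicate 1 and 0.812, 2.06, 2.52 and 1.99 CPM in replicate 2. All 6 libraries with auxin stood above both 0 h libraries, by 1.86-fold to 3.1-fold within replicates. The difference was not called at 96 h without the block (adjusted p = 0.6) or with it (0.17), and was called at 48 and 96 h in the fit of all 24 libraries (adjusted p = 0.016 and 0.026), as was Ebf4 at 96 h (0.0079). For ES comparisons that fit is the more lenient, with a common dispersion of 0.0439 against 0.134 in the ES set. Ebf1 went apart between replicates, to 2.6 CPM at 96 h against 6.35 CPM at 0 h in replicate 1 and to 12.2 CPM against 7.92 CPM in replicate 2. Myt1l had 0.381 and 0.341 CPM at 96 h, against 0.197 and 0.568 CPM at 0 h, and Myt1 0.127 and 0.0359 CPM, against 0.158 and 0.0406 CPM, with overlapping libraries in both cases.

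**Figure D4:**
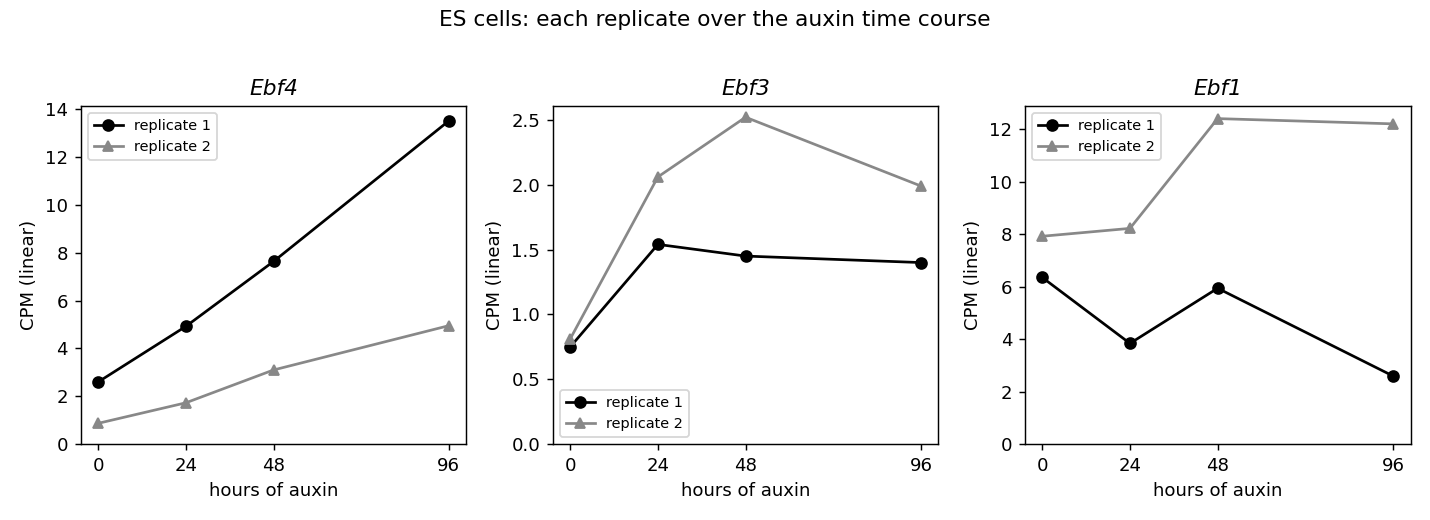
CPM of Ebf4, Ebf3 and Ebf1 in ES cells at 0, 24, 48 and 96 h of auxin, with each replicate as a line. The 2 lines of Ebf4 go up together to 13.5 and 4.95 CPM, those of Ebf1 part.

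Genes that act with the Ebf and Myt1 families in neurogenesis were lower in the same auxin cells. Of 16 proneural and neurogenic factors tested, out of 19 listed, 13 were lower and 1 higher in day 6 auxin cells (median log2 −3.33, against 0.01 over all genes, of which 15.2% were lower and 14% higher). On day 4, 14 were lower and 1 higher (median −3.11, against 0 over all genes, with 11.8% lower and 11.8% higher). Neurog2, a proneural factor that starts neuronal differentiation, averaged 0.185 ± 0.16 CPM in day 6 auxin and 6.16 ± 0.37 CPM in day 6 control cells (log2 −5.02 ± 0.4, adjusted p = 5.6e-08). Nhlh2, a helix-loop-helix factor of newly formed neurons, averaged 0.12 ± 0.017 CPM in day 6 auxin and 14.5 ± 1.0 CPM in day 6 control cells (SD, n = 2 each). On day 2, 3 were higher and 1 lower (median −0.06, against 0.02 over all genes, with 9.84% higher and 8.43% lower). Its summed level was 212 to 225 CPM in day 6 auxin, 267 to 286 CPM in day 4 washout and 402 to 406 CPM in day 6 control libraries.

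Of 26 young neuron genes, 23 were lower and 1 higher in day 6 auxin cells (median log2 −2.63), beside 15.2% of all genes lower. In day 4 washout against day 6 control cells 25 were lower and 0 higher (median −2.07), beside 17.1% of all genes lower, and in day 4 washout against day 6 auxin cells 12 were higher and 7 lower (median 0.49), beside 17.3% of all genes higher and 17.3% lower. Dcx averaged 2.23 ± 0.45 CPM in day 6 auxin and 51.9 ± 0.35 CPM in day 6 control cells, and Cntn2, an axonal adhesion protein, 3.86 ± 0.0072 CPM and 75.8 ± 2.1 CPM in those groups. The summed level of the list was 132 CPM in both day 6 auxin libraries, 116 to 117 CPM in day 4 washout and 592 to 624 CPM in day 6 control libraries, so that the sum and the median give washout and auxin in opposite order. The same sum was 380 to 496 CPM in ES cells at 0 h, 286 to 288 CPM in day 2 controls and 130 to 134 CPM in day 4 controls. It is therefore no measure of neurons by itself. The part of these genes in the levels of the 7 genes was not tested. Of 14 neural progenitor genes, 12 were lower and 1 higher in day 6 auxin cells (median −1.58), beside 15.2% of all genes lower. Their summed level fell less, at 737 to 757 CPM in day 6 auxin, 804 to 843 CPM in day 4 washout and 926 to 945 CPM in day 6 control libraries. Fabp7, a radial glia marker, rested on 2 counts over the auxin group, against 649 in controls, and Olig2, a ventral progenitor factor, on 8 against 833.

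Genes of proteins that work with the 2 families were measured too. Zfp423 and Zfp521, zinc finger proteins that bind EBF proteins, were both lower in day 6 auxin cells, at 22.6 ± 0.13 CPM against 56.5 ± 2.5 CPM in controls for Zfp423 (log2 −1.33 ± 0.09, adjusted p = 9.6e-09) and 29.1 ± 0.46 CPM against 41.3 ± 2.8 CPM for Zfp521 (log2 −0.52 ± 0.13, adjusted p = 0.0076). Of 7 corepressor genes of the kind MYT1 proteins recruit, 3 were lower and 0 higher (median −0.11), beside 15.2% and 14% of all genes, with Rcor2, a corepressor of neuronal genes, at 38.2 ± 2.2 CPM in day 6 auxin and 87.0 ± 0.77 CPM in control cells. Of 9 Notch pathway genes, 4 were lower and 1 higher (median −0.6), beside the same shares of all genes. Hes5, a Notch target, rested on 2 counts over the day 6 auxin group, against 194 in controls, while Hey2, another target, was higher at 9.17 ± 0.21 CPM with auxin and 1.8 ± 0.13 CPM in controls.

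Markers of other cell types were counted in the same comparison, where 14% of all genes were higher and 15.2% lower. Of 10 ES cell genes, 8 were higher and 0 lower in day 6 auxin cells (median log2 0.93), with summed levels of 1040 to 1060 CPM with auxin and 534 to 552 CPM in controls, and Esrrb, a pluripotency factor, at 135 ± 4.8 CPM and 38.1 ± 0.59 CPM. Of 15 mesenchyme genes, 11 were lower and 1 higher (median −0.74), with summed levels of 827 CPM in both auxin libraries, against 981 to 998 CPM in controls. The same genes summed to 1030 to 1060 CPM in day 4 washout and 1590 to 1640 CPM in day 6 washout libraries. Olfactory and sensory neuron genes had 2 higher and 1 lower of 9, adipocyte genes 1 and 1 of 5 tested, oligodendrocyte lineage genes 2 and 3 of 10, endocrine pancreas genes 0 and 3 of 5 tested, and B lineage genes 0 and 1 of 5 tested. With 29.2% of all genes changed, the counts of the olfactory, adipocyte and B lineage lists lie near that share and are no result about those lists. Some lists share genes, and the endocrine pancreas list holds Chga of the young neuron list and Nkx2-2 of the oligodendrocyte list. Only 5 of its 10 genes were tested, so its count is not read as a result about pancreas cells. Rag2 of the B lineage had 0 counts in day 6 controls, where the list summed to 3.06 to 3.4 CPM.

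**Figure D5:**
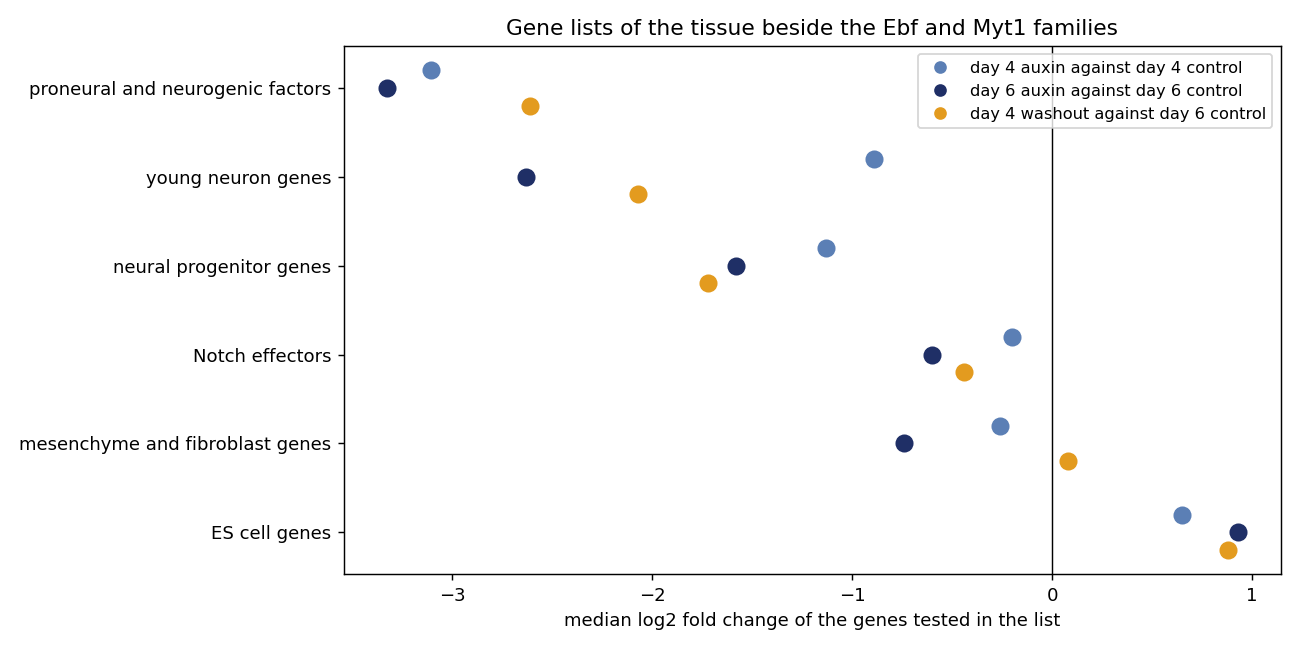
Median log2 fold change of the tested genes in 6 lists for auxin against control on days 4 and 6 and for day 4 washout against day 6 control. Proneural and young neuron genes lie farthest to the left on day 6, at −3.33 and −2.63, and ES cell genes to the right of 0.

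The genomic neighbours of the 7 genes were taken as the 2 nearest coding genes on each side. Of 26 neighbours tested in day 6 auxin against control, 3 were higher and 6 lower, with a median log2 fold change of −0.04 and a range of −1.65 to 1.93. Of all genes tested 29.2% changed (14% higher, 15.2% lower), so the count of neighbours lies near that share and is no result about neighbours. Beside Myt1 (chr2:181763332-181827797), Oprl1, an opioid-like receptor gene 42.3 kb away, averaged 3.09 ± 0.042 CPM in day 6 auxin and 7.24 ± 0.25 CPM in control cells (log2 −1.24 ± 0.14, adjusted p = 4.3e-06). Pcmtd2 at 10.1 kb gave −0.07 ± 0.09 (adjusted p = 0.65), Polr3k at 36.5 kb −0.4 ± 0.08 (adjusted p = 0.001), and Lkaaear1 at 64.9 kb was too low to be tested. Beside St18 (chr1:6487231-6860940), Sntg1, 1500.5 kb away, was lower at 0.231 ± 0.047 CPM with auxin and 0.731 ± 0.14 CPM in controls (adjusted p = 0.0059), and Rb1cc1, Pcmtd1 and Alkal1 were not called (adjusted p = 0.051, 0.11 and 0.076). Beside Ebf3 (chr7:137193673-137314445), Mki67, Mgmt, 9430038I01Rik and Glrx3 were not called (adjusted p = 0.6, 0.26, 0.86 and 0.4). Beside Ebf1, Lsm11 was higher (log2 0.94 ± 0.08) and Rnf145 lower (−0.35 ± 0.06), and beside Ebf2, Bnip3l and Ppp2r2a were lower (−0.32 ± 0.07 and −0.23 ± 0.06). Idh3b beside Ebf4 was higher (0.22 ± 0.07).

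Across the 12 group means, the genes with the pattern most like Myt1 were Lhx3, a motor neuron and interneuron homeobox gene (Pearson r of log2(CPM + 1) = 0.987), Celf3 (0.974) and Nhlh2 (0.971), out of 13815 genes compared. Those most like St18 were Scg3, Vtn and Celf3 (0.984, 0.982 and 0.982), and those most like Ebf3 were Gprin1, Slc10a4 and Vtn (0.962, 0.926 and 0.926). For Ebf2 they were Ccdc157, Prdm8 and Calcrl (0.941, 0.937 and 0.935), for Ebf1 Gng3, Necab2 and Brsk1 (0.939, 0.939 and 0.936), for Ebf4 Ttl, Bcl9l and Slc43a3 (0.985, 0.983 and 0.98), and Dnal4 and Zfp286 were among those most like Myt1l (0.973 and 0.972). Among the members themselves Myt1 and St18 were closest (r = 0.98) and Ebf1 and Ebf4 farthest apart (−0.71). These correlations describe 12 means that share libraries and scaling, and in the Myt1 and St18 cases 1 group, day 6 control, stands above all others.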

How the data were processed

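Per the labels, total RNA was sequenced on a HiSeq4000 instrument. The authors deposited whole-number read counts per gene without normalization, and the submitters' processing notes name STAR, HTSeq, edgeR and mm10, while versions, annotation and strand setting were not given in the sources used here. The table gave 51697 named genes, and its 1 nameless line was empty and holds no counts. Groups and replicate numbers came from the sample titles, and all 24 count columns were matched to them by name.

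Tests used edgeR 4.0.16 in R 4.3.3 (quasi-likelihood, TMM scaling, filterByExpr with a minimum count of 10 and a total of 15, Benjamini-Hochberg over all genes of a comparison). ES comparisons were fitted on 8 libraries (20361 genes, 5 of the 7 members), differentiation and washout comparisons on 16 (22587 genes, all 7) and controls against ES cells on 24 (23831 genes, all 7). The common dispersion was 0.134 in the ES set and 0.0051 in the differentiation set, which is why the sets were fitted apart. CPM are counts over TMM-scaled library sizes of all 24 libraries. An SE is the log2 fold change over the square root of its F statistic, and a fold against a group at 0 is a bound set against 3 counts over the group. Depth gives counting error only. Even values made up 59.6% to 78.0% of counts of 1 to 20, so halved counts were tried. Whether counting kept reads of a gene apart from those of its antisense partner is not known, since the strand setting was not given.

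The members and the 13 lists (144 genes) were chosen with earlier results of these data known. Text names all members, up to 4 changed, non-overlapping genes of each list per comparison by size of change, the 2 nearest coding genes on each side of a member (GENCODE vM21, GRCm38) and the 3 genes most like each member. Of the neighbours, all those of Myt1, St18 and Ebf3 and most of the others called on day 6 are named, the rest are counted, and some genes these rules name are not reported here. Replicate differences of ES groups correlated between groups over genes (0.19 to 0.77 in 6 pairs of groups), so blocked ES values are given beside results they change. Alternatives were DESeq2 1.42.0, RLE scaling, no filter, halved counts, adjusted p below 0.01, a replicate block, other sets of libraries and leaving out each library. The pipeline was tested on simulated data.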

Additional observations from a re-analysis of the deposited data

Results flagged for a closer look

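The auxin effect on day 4 was lower than that on day 2 for 4 genes, by a test of the difference itself. The log2 difference was −2.5 for Ebf2 (adjusted p = 0.0082), −1.56 for Ebf3 (0.00048), −3.83 for Myt1 (0.013) and −8.26 for St18 (0.022), by edgeR's test. The St18 value rests on day 2 groups with 4 counts with auxin and 0 in controls, so it depends on how 0 counts are fitted and is no bound. It reached −12.32 on leaving out single libraries, was −4.13 and not called without day 2 auxin replicate 2, and was not called without either day 2 control library (adjusted p = 0.06 and 0.061). The Myt1 difference was not called without day 2 control replicate 2, day 4 auxin replicate 1 or day 4 control replicate 2 (adjusted p = 0.056, 0.059 and 0.056), and ran between −4.44 and −3.05 on leaving out single libraries.

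The auxin effect on day 6 was lower than that on day 4 for Ebf3, by −0.96 (adjusted p = 0.017), and for Myt1, by −3.84 (adjusted p = 0.036), in the same kind of test. Leaving out single libraries gave adjusted p of 0.055, 0.074, 0.067, 0.065, 0.085 and 0.088 for Ebf3, without day 4 auxin replicates 1 and 2, day 4 control replicates 1 and 2, day 6 auxin replicate 2 and day 6 control replicate 1. For Myt1 it gave 0.082, 0.39, 0.06, 0.063, 0.072 and 0.065, without day 4 auxin replicates 1 and 2, day 4 control replicate 1, day 6 auxin replicate 2 and day 6 control replicates 1 and 2, and a value of −9.72 without day 6 auxin replicate 1.

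Some effects had opposite directions in every library of the groups set side by side, and these differences were not tested. They were picked by that rule among the members, and the share of all genes that meet it was not counted. Ebf3 was higher with auxin in ES cells at 96 h and lower with auxin on day 4, a log2 difference of −1.72, and on day 6, a difference of −2.69. Between day 6 and day 2 the difference was −2.8 for Ebf2, −2.52 for Ebf3 and −7.67 for Myt1. The day 6 effect of Myt1 ran between −12.6 and −5.77 on leaving out single libraries, and day 6 auxin replicate 2 held 0 counts. The ES effect of Ebf3 at 96 h and the day 2 effects of Ebf2 and Myt1 were not called by edgeR (adjusted p = 0.6, 0.27 and 0.39). All groups have 2 libraries, so where the 2 of a group differ, neither can be named as the outlying one.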

How the results depend on the processing

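The counts of members called kept within 1.5 times of those reported under RLE scaling. Under other settings some moved. In ES cells at 96 h, 0 calls became 1 with DESeq2, 1 without a filter, 1 with a replicate block and 2 with all 24 libraries in the fit, and at 48 h 1 with all 24. Day 2 control against ES 0 h, 1 call, gave 2 with DESeq2, 3 with no filter and 0 with only the 4 libraries. With all 24 libraries, day 6 against day 4 control gave 3 (5 reported), day 2 auxin 0 (2), day 4 auxin 1 (5), day 6 auxin 4 (7), day 6 against day 4 with auxin 0 (2), day 4 washout against day 6 auxin 0 (2) and against day 6 control 3 (7), day 6 washout against day 6 auxin 0 (2) and against day 4 washout 0 (1), and the differences between days 0 (4) and 0 (2). At an adjusted p below 0.01, day 6 against day 4 with auxin gave 1, day 4 washout 0 against day 6 auxin and 4 against day 6 control, day 6 washout against day 6 auxin 1, and the differences between days 2 and 0. In day 4 washout against day 6 auxin DESeq2 kept the count at 2 by losing Ebf2 (adjusted p = 0.064) and gaining St18 (0.043). With halved counts, day 6 against day 4 with auxin and both washouts against day 6 auxin gave 1 each. The replicate block took day 6 against day 4 with auxin to 1, added Ebf4 on day 2 with auxin (adjusted p = 0.049) and changed no other call. Replicate numbers in differentiation groups only share a number, with correlations of −0.24 to 0.2 in 28 pairs of groups and −0.11 to 0.15 in the 32 pairs of an ES with another group.

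Leaving out each library gave ranges of 0 to 0 calls in each ES comparison, 1 to 2, 5 to 6 and 6 to 6 for control days 2, 4 and 6 against ES cells, 5 to 6 and 4 to 5 for the steps between control days, 2 to 3, 4 to 5 and 7 to 7 for auxin on days 2, 4 and 6, 2 to 3 and 0 to 2 for the steps with auxin, 0 to 1 and 4 to 6 for day 4 washout against day 6 auxin and control, 1 to 2 and 0 to 1 for day 6 washout against day 6 auxin and day 4 washout, and 2 to 5 and 0 to 2 for the differences between days. Where an arm was left with 1 library, it was taken to vary like the other groups. Among member fold changes in these fits, 510 kept their side of the threshold, 51 were no longer called and 3 became so. No direction of a called value turned.

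The count of all genes called also moved. With all 24 libraries it was 307, 710 and 1955 at 24, 48 and 96 h in ES cells (0 reported), 313, 803 and 1564 for auxin on days 2, 4 and 6 (4126, 5318 and 6588), 5746 and 1218 for the steps between control days (11757 and 6024), 5000 and 945 for those with auxin (11273 and 5896), 1606 and 1635 for day 4 washout (7823 and 7658), 2337 and 80 for day 6 washout (9097 and 2975) and 73 and 30 for the differences between days (2237 and 958). In ES cells DESeq2 gave 76, 156 and 367 genes, no filter 49, 135 and 391, and the block 23, 40 and 621. With only the 4 libraries, control days against ES cells gave 238, 4419 and 5945 (4328, 9162 and 10425). The common dispersion was 0.0439 in the 24-library fit, against 0.0051 in the differentiation set and 0.134 in the ES set. At an adjusted p below 0.01 the counts were 2388 and 3380 for auxin on days 2 and 4, 3860 for day 6 against day 4 control, 3552 for the same step with auxin, 5058 and 5074 for day 4 washout against day 6 auxin and control, 1596 between washouts, 1049 and 447 for the differences between days and 2185 for day 2 control against ES cells. For Ebf3, 1 of the 3 most alike genes stayed with a pseudocount of 0.25. Depth limits Ebf2, Myt1 and St18, which had 0 to 13 counts per library in ES cells, and St18 on day 2.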

Other observations

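Pax5, a B lineage factor that Ebf1 works with in lymphocytes and that is also expressed in the developing midbrain, averaged 0.105 ± 0.055 CPM in day 6 auxin and 1.44 ± 0.19 CPM in day 6 control cells (SD, n = 2 each, log2 −3.78 ± 0.42, adjusted p = 3.2e-06 by edgeR). It averaged 0.468 ± 0.02 CPM in day 4 washout cells, above day 6 auxin cells (log2 2.17 ± 0.47, adjusted p = 0.0019). Sst, the gene of the peptide somatostatin, averaged 9.55 ± 1.7 CPM in day 4 washout, against 1.49 ± 0.42 CPM in day 6 auxin and 6.67 ± 0.57 CPM in day 6 control cells. Ins1 and Gcg had 0 counts in day 6 auxin libraries, and likewise in ES cells at 0 h and in day 2 control libraries. Pax4 alone of the endocrine pancreas list had 0 counts in day 6 controls. A 0 at such a floor is not read as a change here. Runx1, listed for sensory neurons and also a blood factor, was higher with auxin on day 6, at 65.2 ± 4.9 CPM and 27.7 ± 2.1 CPM in controls (log2 1.22 ± 0.09, adjusted p = 2.2e-08).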
